A study of Homo sapiens with 3 samples.

Results

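The promoter contacts of the natriuretic peptide system were described in cardiomyocytes derived from human embryonic stem cells (hESC-CMs). The list held 7 genes: the hormone genes *NPPA*, *NPPB* and *NPPC*, the receptor genes *NPR1*, *NPR2* and *NPR3*, and the protease gene *CORIN*. Promoter capture Hi-C (PCHi-C) was used, an assay that cross-links chromatin, cuts it with HindIII, ligates fragments that lay close together, and then pulls down the ligation products of promoter fragments with RNA baits. The series had 3 biological replicates and 1 condition, so no treatment or cell type was compared here. The cells came from the WA09 (H9) line, were differentiated with a commercial kit and enriched in a medium with lactate in place of glucose. The protocol asked for a purity check with MYH7 and TNNT2, sarcomere genes of cardiomyocytes, before fixation. Contacts do not measure expression, so the cell type could not be checked in these files.

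A promoter fragment was taken as a HindIII fragment listed at the promoter end of a contact that holds an annotated transcript start of the gene. Of the 7 genes, 6 had such a fragment, 1 each, out of 19075 promoter fragments in the series. *NPR2* had none. Each contact is a pair of fragments with a CHiCAGO score, a value that weighs the read count of the pair against the count expected from distance and from the capture of the fragments. Only pairs with a score of at least 5.00 are listed, so a contact that is missing in a replicate may lie just under that value. The 3 replicates held 112473, 109731 and 110740 interactions, and their median scores lay between 6.63 and 6.65. The read depth behind a score is not in these files.

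Natriuretic peptides are hormones that lower blood volume and blood pressure. *NPPA* encodes atrial natriuretic peptide and *NPPB* encodes B-type natriuretic peptide. Both are made by heart muscle cells, in larger amounts when the wall is stretched, and both are used as markers of the developing or failing heart. *NPPC* encodes C-type natriuretic peptide, which acts locally in bone and vessel walls. Corin is a membrane protease of cardiomyocytes that cuts the precursor of atrial natriuretic peptide into its active form. *NPR1* and *NPR2* encode guanylyl cyclase receptors that make cyclic GMP, with *NPR1* serving the atrial and B-type peptides and *NPR2* the C-type peptide. *NPR3* encodes the clearance receptor, which removes all of them from the circulation.

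The promoter fragments of the 6 genes had 161 different contacts over the 3 replicates. The numbers per replicate were 116, 104 and 109, with a mean of 110 ± 6.03 (SD, n = 3). Of these, 67 were found by every replicate, 34 by 2 of them and 60 by 1. The share called in all 3 replicates was 41.6% (95% Clopper-Pearson interval 33.9 to 49.6%, which covers counting error only). Over all 200587 contacts of the series this share was 24.0%. The 6 genes also had shorter contacts than the series, since 93.2% of theirs lay on the same chromosome within 1 Mb, against 55.7% of all contacts. Within 1 Mb, 44.7% of the contacts of the 6 genes and 34.0% of all contacts were called in all 3 replicates. The median distance was 306 kb for the 6 genes and 716 kb for all contacts. *NPPB* alone went the other way, with 3 of its 10 contacts within 1 Mb and a median distance of 4394 kb. The contacts of 1 promoter overlap in distance and neighbourhood, so the shares are given as descriptions without a test.

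The 6 fragments differed widely in the number of contacts, and in this respect fell into 4 levels in the single replicates. *NPPC* had 49, 39 and 36 contacts in replicates 1, 2 and 3 (mean 41.3 ± 6.81, SD, n = 3). *NPR1* had 23, 28 and 28 (26.3 ± 2.89), and *CORIN* had 28, 24 and 22 (24.7 ± 3.06). *NPPA* had 8, 8 and 10 (8.67 ± 1.15), *NPR3* had 4, 5 and 7 (5.33 ± 1.53), and *NPPB* had 5, 1 and 7 (4.33 ± 3.06). Every replicate of *NPPC* lay above every replicate of *NPR1* and *CORIN*, and the latter pair overlapped. Every replicate of *NPPA* lay above those of *NPR3* and *NPPB*, which overlapped each other. The calls made on the merged replicates did not keep these levels. They held 14 contacts for *NPR3* and 7 for *NPPA*, and 39 for *NPR1* and 23 for *CORIN*. *NPPC* was still highest there, with 58, and *NPPB* lowest, with 4. Among all promoter fragments the union of contacts placed *NPPC* at the 98.3rd percentile, *NPR1* and *CORIN* at the 93.2nd, and *NPPA* at the 76.1st. *NPR3* stood at the 66.3rd and *NPPB* at the 63.0th percentile, with the median promoter fragment at 6 contacts.

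**Figure D1:**
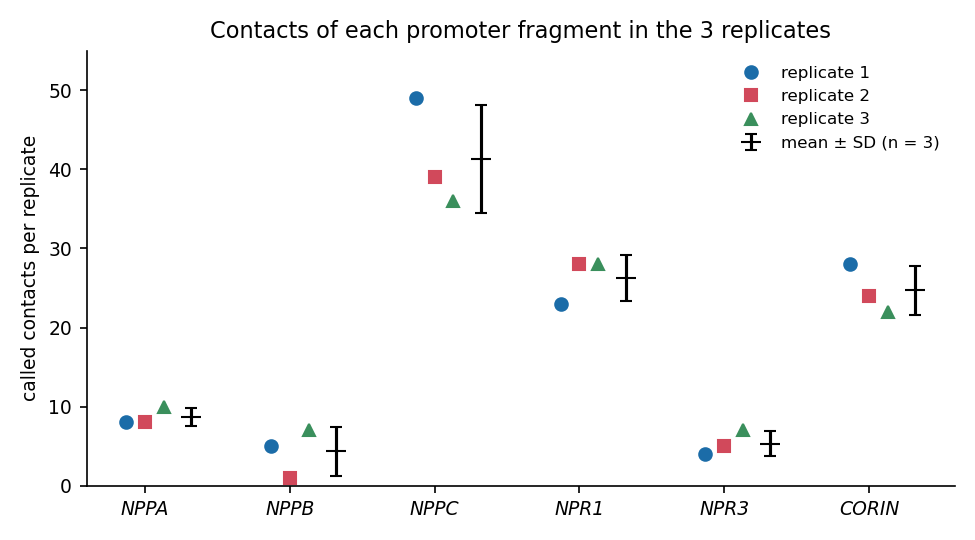
Number of called contacts (vertical axis) of the promoter fragment of each of 6 natriuretic peptide system genes (horizontal axis), with 1 point per replicate and the mean ± SD (n = 3) in black. *NPPC* sits highest at 36 to 49 contacts, *NPR1* and *CORIN* overlap at 22 to 28, and *NPPB* has the widest relative spread, from 1 to 7.

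Of the 6 fragments, 5 had at least 1 contact called in all 3 replicates, against 51.9% of all promoter fragments. *NPR1* had the highest share of such contacts, 20 of 33 (60.6%, interval 42.1 to 77.1%), followed by *CORIN* with 18 of 33 (54.5%, interval 36.4 to 71.9%). *NPPC* had 24 of 60 (40.0%, interval 27.6 to 53.5%) and *NPPA* 5 of 15 (33.3%, interval 11.8 to 61.6%). *NPPB* had 1 of 10 (10.0%, interval 0.253 to 44.5%) and *NPR3* 0 of 11 (upper bound 28.5%). These shares count exact fragment matches. The interval of *NPR1* overlapped those of *CORIN*, *NPPC*, *NPPA* and *NPPB*, so the order of these genes is only that of the observed shares. When a call within 5 kb was enough, the order changed to 90.0% for *NPPC*, 78.8% for *NPR1* and 75.8% for *CORIN*. All contacts of *NPPC*, *CORIN* and *NPR3* lay within 1 Mb, where the share in the series was 34.0%. The interval of *NPPC* includes that value, that of *CORIN* lies above it and that of *NPR3* under it. The intervals treat neighbouring contacts as independent, which they are not.

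**Figure D2:**
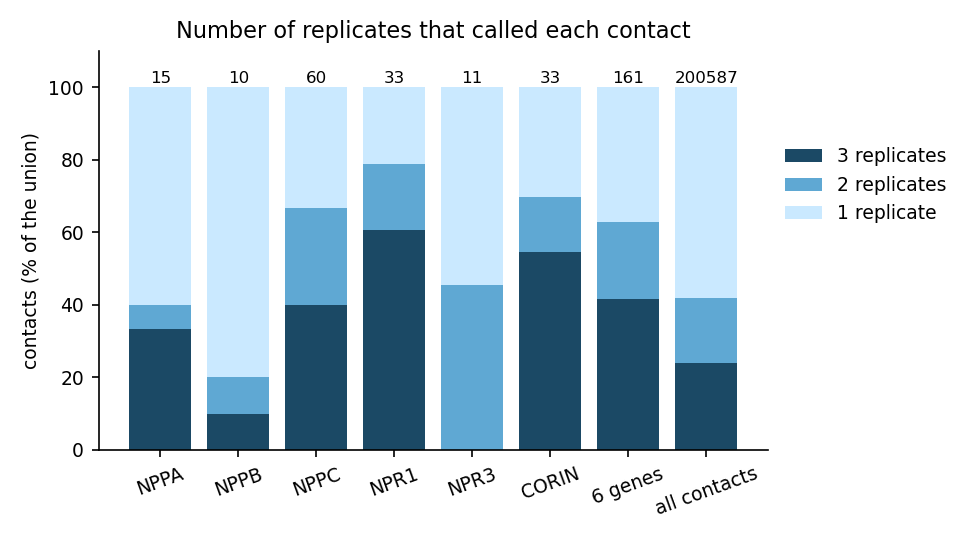
Share of contacts in percent (vertical axis) called in 3, 2 or 1 replicates, for each gene, for the 6 genes together and for all contacts of the series (horizontal axis). The numbers on top are the contacts in each bar, and the dark part is highest for *NPR1* at 60.6% and absent for *NPR3*.

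The hormone genes *NPPA* and *NPPB* lie side by side on chromosome 1, and their promoters contacted each other in every replicate. The *NPPA* fragment spans chr1:11901356-11913795 and the *NPPB* fragment chr1:11917524-11920807 (GRCh37), and both genes are read from the minus strand. The scores of the contact between them were 9.72, 7.52 and 10.31 in replicates 1, 2 and 3 (mean 9.18 ± 1.47), over a midpoint distance of 11.6 kb. The strongest contact of *NPPA* lay farther out, upstream of both genes. It joined *NPPA* to a 20.9 kb fragment at chr1:11953288-11974191. That fragment holds the starts of the small nuclear RNA gene *RNU5E-1*, the pseudogene *RNU5E-4P* and the gene ENSG00000285646. The contact scored 22.59, 20.46 and 16.62 (mean 19.9 ± 3.03) at 56.2 kb. In each replicate that score was more than any other score of *NPPA*. *NPPB* lies between these fragments, and its own pair with the *RNU5E-1* fragment was not listed in any replicate.

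The other contacts of *NPPA* in all 3 replicates ended on neighbouring genes. The fragment with a start of *MFN2*, which encodes a protein of mitochondrial fusion, scored 9.99, 6.57 and 9.64 at 130 kb. The *KIAA2013* fragment scored 7.32, 7.80 and 6.79 at 77.6 kb. A fragment over exons 5 to 7 of *CLCN6*, a chloride and proton exchanger gene, scored 5.36, 5.12 and 5.44 at 26.0 kb downstream, close to the lowest listed value. Of the 15 partners of *NPPA*, 13 were themselves promoter fragments (86.7%), and 12 held an annotated transcript start. Contacts between promoter fragments made up 23.6% of the contacts of the 6 genes and 9.59% of all contacts in the series. The 10 *NPPA* partners not called in all 3 replicates scored between 5.32 and 8.53. They included promoter fragments of *DFFA* and *PEX14*, of *SRM* and of *MTOR*, each in 1 replicate.

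*NPPB* had few repeated contacts. Beside the contact with *NPPA*, 1 of its 10 contacts was called in 2 replicates. The remaining 8 contacts were each called in 1 replicate. They included the only contact of the 6 genes with another chromosome (6.96 in replicate 1) and a contact 222993 kb away (10.86 in replicate 3). In replicate 2 the contact with *NPPA* was the only one listed for *NPPB*.

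**Figure D3:**
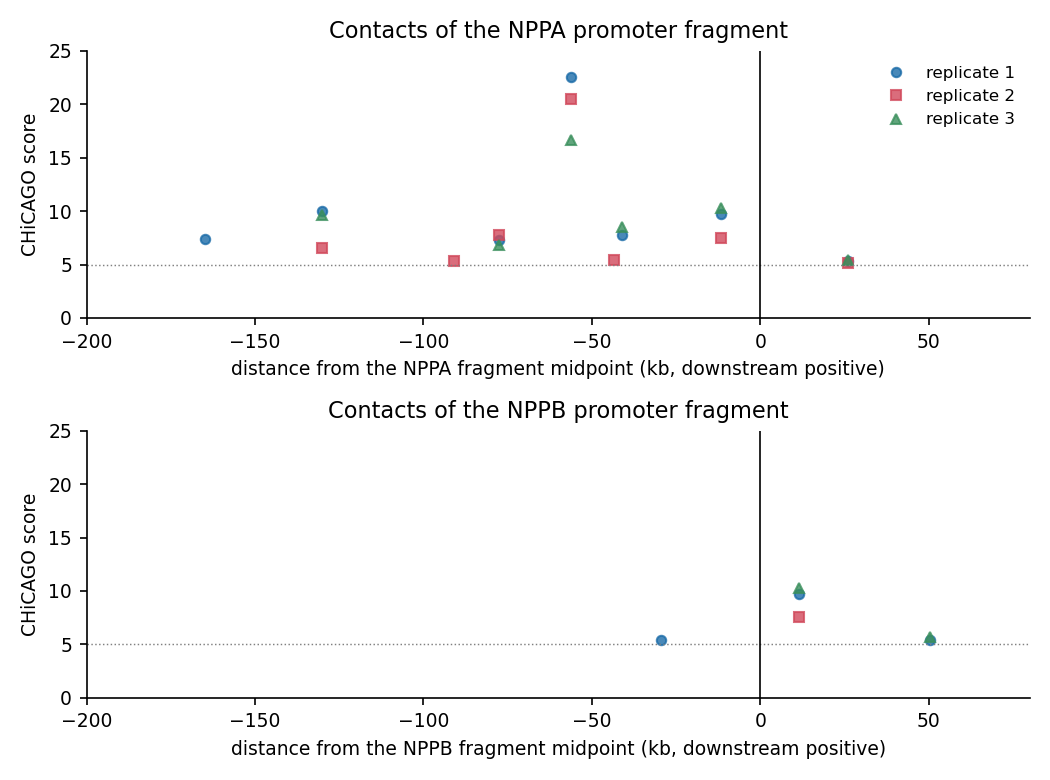
CHiCAGO score (vertical axis) of each contact of *NPPA* (top) and *NPPB* (bottom) against the distance from the midpoint of the promoter fragment in kb (horizontal axis, downstream positive), with 1 symbol per replicate and a dotted line at the lowest listed score of 5. Contacts beyond the axis are left out. The *NPPA* points at 56.2 kb upstream lie between 16.62 and 22.59, above all others, while the points of *NPPB* stay at or under 10.31.

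The 6 genes form 15 pairs, and 1 partner fragment was shared by any pair. It is a fragment of 170 bp at chr1:11948703-11948872, upstream of *NPPA* and *NPPB* and next but 1 to the *RNU5E-1* fragment. *NPPA* contacted it at 7.72 in replicate 1 and 8.53 in replicate 3, and *NPPB* at 5.40 in replicate 1. The *RNU5E-1* promoter fragment contacted it as well, at 5.58 in replicate 1. On the merged replicates the scores were 7.19 for *NPPA*, 6.88 for *NPPB* and 7.30 for *RNU5E-1*. No fragment was called for both genes in all 3 replicates, so the difference in score between the promoters was not tested. The 170 bp lie wholly inside the VISTA element hs2125, an enhancer from a collection of human and mouse elements tested with a reporter gene in mouse embryos, and cover 4.29% of it. The adjacent fragment chr1:11948873-11953287 overlaps the same element by 618 bp (15.6% of it) and was contacted by *NPPA* in replicate 2 at 5.40. The rest of the element lies in the fragment chr1:11942858-11948702, for which no replicate listed a contact with any promoter. Among 91 listed enhancers this was the 1 that touched a partner of the 6 genes. That list holds enhancers that the study had already intersected with its contacts, so the overlap is not independent evidence.

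The sequences below are the 250 bases before the main start of *NPPA* and *NPPB*, shown because these promoters contact each other, and the 170-bp fragment that both reach. They were read from GRCh37, 5′ to 3′, the promoters on the minus strand (chr1:11907841-11908090 and chr1:11919003-11919252) and the fragment on the plus strand. Capitals mark matches, on either strand, to motifs of cardiac transcription factors or to the TATA box.
NPPA promoter: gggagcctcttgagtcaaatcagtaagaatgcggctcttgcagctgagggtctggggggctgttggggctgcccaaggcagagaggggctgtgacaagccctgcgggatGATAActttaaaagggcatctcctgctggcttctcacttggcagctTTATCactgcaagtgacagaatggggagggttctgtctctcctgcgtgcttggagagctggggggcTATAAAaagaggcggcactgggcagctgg
NPPB promoter: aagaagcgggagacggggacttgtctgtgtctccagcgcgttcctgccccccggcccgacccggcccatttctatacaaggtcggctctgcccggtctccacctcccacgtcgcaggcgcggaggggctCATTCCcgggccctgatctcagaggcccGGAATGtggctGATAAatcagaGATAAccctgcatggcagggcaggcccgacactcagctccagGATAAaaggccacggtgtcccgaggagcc
Shared fragment: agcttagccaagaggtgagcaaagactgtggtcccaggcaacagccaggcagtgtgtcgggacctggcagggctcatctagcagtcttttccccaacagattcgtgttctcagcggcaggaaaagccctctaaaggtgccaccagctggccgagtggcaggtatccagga

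The motifs searched were GATAA for GATA factors, GGTGTGA for T-box factors, TNAAGTG for NKX2-5, CATTCC for TEAD factors, TATAAA for the TATA box, and by name the CArG box of SRF and the MEF2 motif. No matches overlapped in these sequences. In the *NPPA* promoter GATAA stood at positions 110 and 156 and TATAAA at position 222, counted from 1 at the 5′ end. In the *NPPB* promoter CATTCC stood at 130 and 158, and GATAA at 169, 180 and 222. GATAA was found in 15.9% of 19780 promoter windows of the same length, CATTCC in 9.85% and TATAAA in 9.28%. The 170-bp fragment held none of the 7 motifs, which says only that these letters are not in it.

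Likeness between promoters was measured by the Jaccard share, the partners that both contact as a share of those that either contacts. The fragment most like *NPPB* was the *RNU5E-1* fragment, with a Jaccard share of 18.8%. They had 3 shared partners (3 of 10 for *NPPB* and 3 of 9 for the other). Of these, 1 was called for both in all 3 replicates.

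*CORIN* held the highest score of the 6 genes, and most of its contacts lay inside its own gene. Its promoter fragment spans chr4:47838702-47843997, and the gene runs from there on the minus strand. Of 33 contacts, 25 ended within *CORIN* downstream of the promoter, among them 16 of the 18 called in all 3 replicates. The contact with chr4:47703743-47707666 scored 38.29, 35.32 and 36.02 (mean 36.5 ± 1.55), at 136 kb. That mean was at the 98.8th percentile of the 48209 contacts called in all 3 replicates. The fragment beside it, chr4:47707667-47712329, scored 27.23, 25.23 and 26.84 (26.4 ± 1.06), and the one on the other side, chr4:47700140-47703742, scored 20.37, 19.98 and 20.32 (20.2 ± 0.212). The ranges of these 3 fragments did not overlap, so their order was the same in each replicate.

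These fragments belong to a run of 7 adjacent fragments, all called in all 3 replicates, that covers 21.5 kb at chr4:47696473-47717925. The score was lower to both sides of the peak, with means of 7.57 ± 1.45 at the far end and of 10.7 ± 2.76 at the end nearer to the promoter. The whole run lies in intron 5 of the main transcript, which has 22 exons. Intron 5 is 51.3 kb long and held 13 contacted fragments, 9 of them called in all 3 replicates. Intron 4 held 3 and intron 10 held 2, each of them called in all 3 replicates. None of the 7 fragments of the run holds an annotated start of a protein-coding gene, and 1 holds the pseudogene *RPL15P7*. No other promoter in the series contacted 6 of the 7, and 1 other promoter contacted the fragment at 139 kb.

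Upstream of *CORIN*, 2 contacts were called in all 3 replicates. The fragment with *RNU6-838P*, inside the kinase gene *TXK*, scored 14.36, 9.95 and 12.76 at 268 kb (12.4 ± 2.23). The fragment with the start of *TXK* itself scored 6.53, 9.28 and 8.48 at 296 kb. All 6 other upstream contacts were each seen in 1 replicate, at 5.04 to 6.12. The promoter most like *CORIN* in its partners was that of the neighbouring *NIPAL1*. It had 8 shared partners (24.2% of those of *CORIN*, 66.7% of the other's, Jaccard share 21.6%). Next came the fragment of *NFXL1* and *NIPAL1*, with a Jaccard share of 13.9%. For each of them, 2 shared partners were called for both promoters in all 3 replicates.

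**Figure D4:**
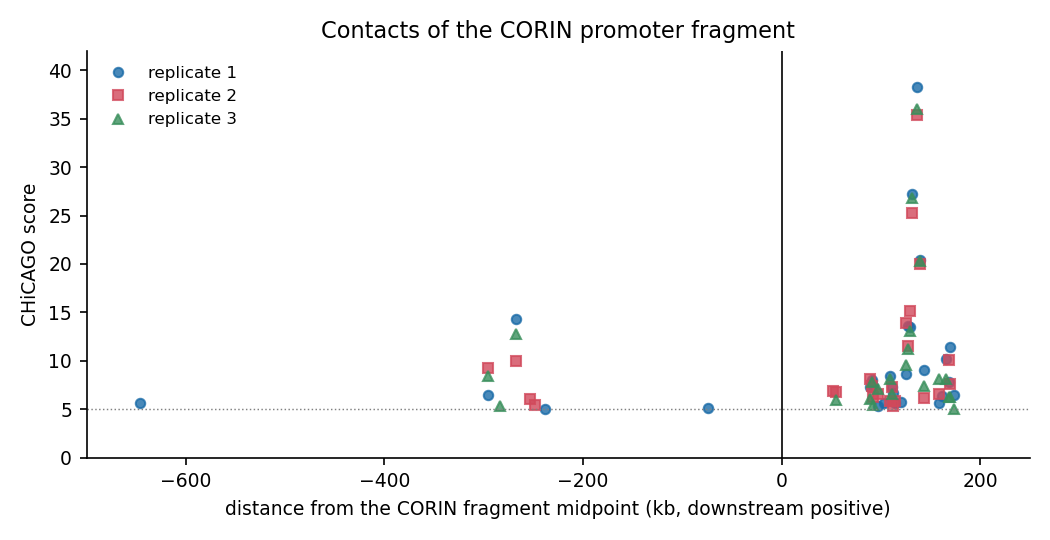
CHiCAGO score (vertical axis) of every contact of the *CORIN* promoter fragment against the distance from its midpoint in kb (horizontal axis, downstream positive), with 1 symbol per replicate. Scores at 131 to 139 kb downstream, in intron 5, reach 19.98 to 38.29 and stand above all others, and the points of the 3 replicates lie close together there.

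The 250 bases before the main start of *CORIN* (chr4:47840085-47840334, minus strand) are shown beside those of *NPPA* and *NPPB* for comparison, as the promoter of a gene that acts on the product of *NPPA*. They held none of the 7 motifs, so no letter is in capitals.
CORIN promoter: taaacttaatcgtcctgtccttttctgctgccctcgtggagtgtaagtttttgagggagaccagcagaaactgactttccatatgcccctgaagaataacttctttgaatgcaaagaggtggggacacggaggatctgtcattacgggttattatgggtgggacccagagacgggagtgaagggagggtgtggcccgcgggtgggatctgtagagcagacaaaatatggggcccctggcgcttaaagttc

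*NPPC* had the broadest set of contacts, and all 60 lay upstream of it, between 179 and 618 kb. Its fragment spans chr2:232780143-232795475 and the gene is read from the minus strand, so that upstream means higher coordinates. Of the 60 partners, 33 overlapped *DIS3L2*, an exoribonuclease gene, and 16 lay between genes. Most contacts came in blocks, as 91.7% had an adjacent fragment called for *NPPC* too. For the 6 genes together this share was 73.9%, and for all contacts it was 52.5%. When a call within 5 kb was enough, 54 of the 60 contacts (90.0%) had a match in all 3 replicates. Over all promoter fragments this share was 47.8%, but that value covers contacts at every distance, while all 60 of *NPPC* lay within 1 Mb. A match within 5 kb can also come from an adjacent fragment. These shares therefore cannot show that the contacts of *NPPC* were more repeatable than others. With exact matches the share was 40.0% for *NPPC* and 34.0% for all contacts within 1 Mb.

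The highest scores of *NPPC* lay in 2 stretches. The first was a run of 6 adjacent fragments in all 3 replicates, 49.4 kb long, at chr2:233154593-233203986 in the last part of *DIS3L2*. Within it the fragment chr2:233192913-233203986 scored 13.68, 12.34 and 18.31 (mean 14.8 ± 3.13) and chr2:233172034-233176030, in intron 14, scored 14.92, 13.59 and 14.01 (14.2 ± 0.680). The second stretch lay about the alkaline phosphatase genes *ALPG* and *ALPI*. The *ALPI* fragment scored 19.68, 11.37 and 7.36 (12.8 ± 6.28) and the *ALPG* fragment 13.04, 12.50 and 9.47 (11.7 ± 1.92). The best intergenic fragments between them scored 12.30, 11.96 and 16.75 at chr2:233295596-233302329 and 18.38, 12.30 and 10.34 at chr2:233302330-233302497. The spread between replicates at *ALPI* was larger than the difference between the means of these fragments, so they have no order among themselves.

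The fragment chr2:233302330-233302497 is only 168 bp long and lies 515 kb from *NPPC*. It is shown on the plus strand as the shortest of the highest-scoring contacts of *NPPC*, and it held none of the 7 motifs.
NPPC partner fragment: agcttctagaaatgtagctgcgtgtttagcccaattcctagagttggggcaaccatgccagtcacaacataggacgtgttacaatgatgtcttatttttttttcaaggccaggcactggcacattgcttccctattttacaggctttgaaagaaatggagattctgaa

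The promoters most like *NPPC* were its neighbours. The *MIR1471* fragment at 35.3 kb shared 32 partners with it, 53.3% of those of *NPPC* and 80.0% of the other's, for a Jaccard share of 47.1%. The *DIS3L2* promoter at 37.8 kb had 15 partners, and 14 of them were also partners of *NPPC*. The fragment of *PDE6D*, *COPS7B* and *RPL28P2* shared 7 of its 10. Fewer shared partners were called for both promoters in all 3 replicates. They were 12 with *MIR1471*, 1 with *DIS3L2* and 2 with the *PDE6D* fragment.

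The contacts of *NPR1* went mainly downstream. Its fragment spans chr1:153649059-153654305 and the gene is read from the plus strand. Of 33 contacts 28 were downstream and 5 upstream, and 13 joined it to another promoter fragment. One group of contacts, at 48.9 to 95.9 kb, covered *INTS3*, a gene of the Integrator complex. The *INTS3* fragment at chr1:153721604-153725018 scored 15.19, 10.91 and 10.70 (mean 12.3 ± 2.53), and the fragment with starts of *INTS3* and *SLC27A3* scored 14.35, 11.44 and 10.28 (12.0 ± 2.10). A further group lay at 247 to 323 kb. There the fragment of *SLC39A1*, a zinc transporter gene, and *CREB3L4* scored 12.80, 12.79 and 12.14 (12.6 ± 0.378). The fragment of the small GTPase gene *RAB13* and the ribosomal protein gene *RPS27* scored 12.93, 12.37 and 11.20 (12.2 ± 0.883). Both belong to a run of 5 adjacent fragments at chr1:153936971-153974010, every one called in all 3 replicates. The replicate ranges of these 4 fragments overlapped, so none stood above the others.

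Upstream, *NPR1* contacted 2 short fragments about *S100A9* in all 3 replicates, 165 bp and 208 bp long. The first, chr1:153325783-153325947, scored 7.82, 5.35 and 7.60 at 326 kb and was contacted by 17 other promoter fragments. It is printed on the plus strand as a short fragment that many promoters reach, and held none of the 7 motifs.
NPR1 partner fragment: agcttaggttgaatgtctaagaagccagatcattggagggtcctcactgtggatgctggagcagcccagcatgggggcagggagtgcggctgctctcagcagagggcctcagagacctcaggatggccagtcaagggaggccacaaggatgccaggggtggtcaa

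*NPR1* shared its partners with the promoter next to it. The adjacent *ILF2* fragment, whose gene encodes an RNA-binding protein, lies 8.96 kb away between midpoints. It shared 27 partners with *NPR1*, 81.8% of those of *NPR1* and 77.1% of its own, and the Jaccard share of 65.9% was the highest of any gene of the list. Of these, 13 were called for both in all 3 replicates. At the *SLC39A1* and *CREB3L4* fragment the *ILF2* scores were 11.07, 13.41 and 14.74, a range that covers the *NPR1* scores. At the *INTS3* fragment *ILF2* scored 7.34, 8.03 and 9.52, under all 3 values of *NPR1*. A retained intron transcript of *NPR1* starts in the next fragment, which is not listed as a promoter fragment. That fragment was contacted from the same *INTS3* fragment at 5.56, 6.40 and 5.79.

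**Figure D5:**
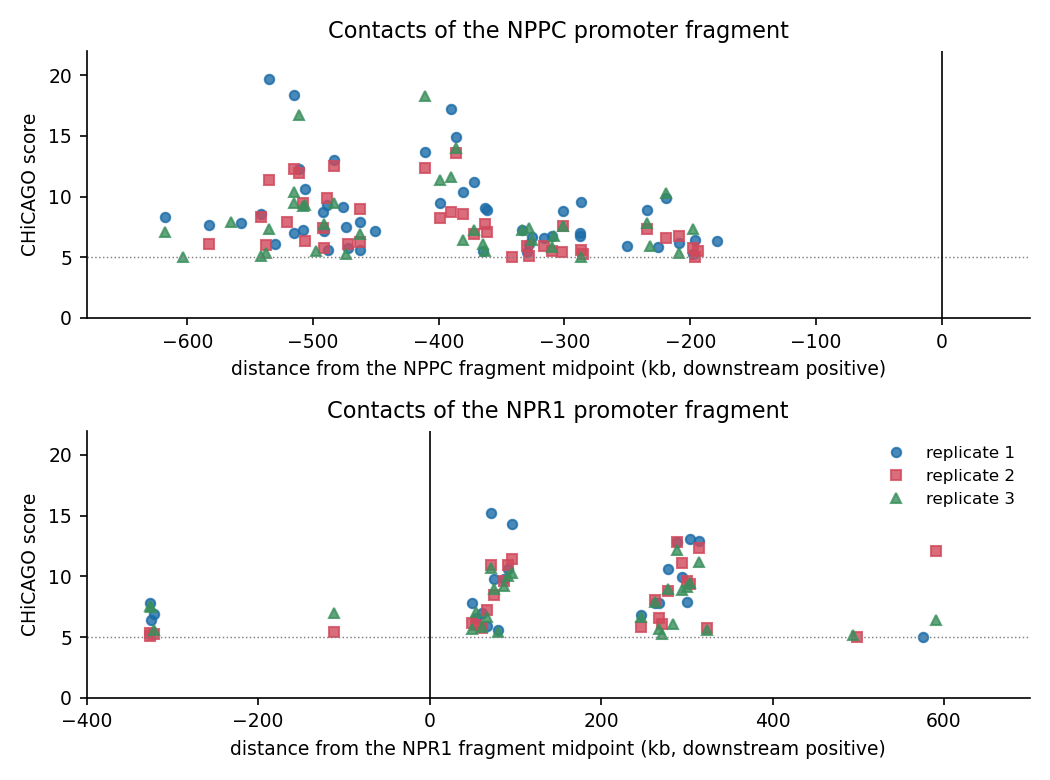
CHiCAGO score (vertical axis) of the contacts of *NPPC* (top) and *NPR1* (bottom) against the distance from the midpoint of each promoter fragment in kb (horizontal axis, downstream positive), with 1 symbol per replicate. Contacts beyond the axis are left out. All 60 contacts of *NPPC* lie upstream at 179 to 618 kb, while 28 of the 33 of *NPR1* lie downstream.

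*NPR3* had weak contacts that changed from replicate to replicate. Its promoter fragment, chr5:32682170-32690260, holds 1 of its 7 annotated starts, and the main start lies in another fragment that is not listed as a promoter fragment. All 11 contacts lay downstream, between 607 and 746 kb, and none joined *NPR3* to a promoter fragment. The contact with the highest mean score, chr5:33297003-33298266, was listed in replicates 2 and 3 only, at 8.66 and 5.29. Of the 11, 5 were called in 2 replicates, and 3 had a call within 5 kb in all 3 replicates. The fragment with the main start was contacted from a promoter fragment over the long non-coding RNA gene *LINC02160*, 569 kb downstream, at 7.26 in replicate 2 and 5.41 in replicate 3.

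*NPR2* had no listed promoter fragment in any replicate, so in the replicates its contacts could be seen only from other promoters. Whether its fragment was captured without a listed contact cannot be told from the replicate calls. The fragment with its main start, chr9:35784930-35799763, was listed once in the replicates, in replicate 3 at 6.90, with the fragment of *ATP6V0C* and *AMDHD2* on chromosome 16.

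The rest of the pathway was taken from a list of 16 genes, of which 14 had a promoter fragment and 8 had a contact in all 3 replicates. As with the members, this stands beside 51.9% of all promoter fragments. None of the processing proteases *FURIN* and *PCSK6*, the degrading enzyme gene *MME*, or *OSTN*, a ligand of the clearance receptor, had such a contact, and *IDE* had no promoter fragment. Among cyclic GMP targets and phosphodiesterases, 4 of 6 had one. The kinase gene *PRKG1* had 10 of 37 contacts in all 3 replicates, with a best contact of 32.69, 28.00 and 14.50 in its own gene. *PDE5A*, the phosphodiesterase blocked by sildenafil, had 13 of 23, with a best contact of 23.24, 22.99 and 21.67 at 419 kb. *PDE3A* had 6 of 17 and *PRKG2* 1 of 4. *PDE2A* had 0 of 7, and *PDE9A* had no promoter fragment. Among the neighbours of *NPPA* and *NPPB* in the list, *KIAA2013* had 2 of 11, *MFN2* 3 of 22 and *PLOD1* 0 of 5.

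The partner fragments also differed in base composition, which the selection did not use. The median GC content was 52.4% for the partners of *NPPA*, 48.4% for *NPR1*, 47.6% for *NPPB* and 45.8% for *NPPC*. It was 39.5% for *NPR3* and 39.3% for *CORIN*, against 40.3% for all partner fragments. The lower and upper quartiles of all partner fragments were 36.4 and 45.1%, so the median of *NPPA* stood above that range and those of *NPR3* and *CORIN* inside it. The fragments of *NPPA* were also long, with a median of 7.39 kb against 2.10 kb. The part of base composition or fragment length in the scores was not tested.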

How the data were processed

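Promoter capture Hi-C was analysed in 3 biological replicates of hESC-CMs. The deposited values are CHiCAGO scores. Per the labels and the methods, the authors mapped reads with HiCUP to GRCh37 and scored pairs of HindIII fragments. No read was mapped again. Pairs scoring under 5 are not listed, and read depth was not analysed here. Genes were taken from GENCODE 44 on GRCh37. A contact was an unordered pair of fragments, counted once in the union of the 3 replicates, and distances run between midpoints. The merged calls were an alternative. Means ± SD are over the replicates that called a contact, and intervals are 95% Clopper-Pearson intervals. The likeness of promoters was the Jaccard share of their partners. The members and gene lists were chosen with earlier results of these data known. Named genes were the members, genes at the 5 highest-scoring partners of each, up to 3 promoters with the most alike partners and VISTA elements on a partner. Genes of some other single contacts were named after their values were seen. Some items of the gene list and some partners are not reported here. Counting was tested on simulated data. Python 3.11.15, numpy 2.4.6, pandas 2.3.3, scipy 1.17.1 and matplotlib 3.10.9 were used.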

Additional observations from a re-analysis of the deposited data

Results flagged for a closer look

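The calls on the merged replicates, which are outside the union described above, held 19 contacts of the promoter fragments of the 6 genes that no single replicate had listed. They belonged to *NPR1* (8), *NPR3* (6), *NPPC* (3) and *NPPB* (2), and scored between 5.04 and 6.58, with a median of 5.54.

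The merged calls also held 2 contacts of the fragment with the main start of *NPR2*, which had no listed promoter fragment in any replicate. They scored 6.64 at 85.1 kb and 5.52 at 99.5 kb. Their partner fragments hold no annotated transcript start and overlap no annotated gene. Which fragment of each pair was the promoter end was not examined. The series had no control samples for these contacts.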

How the results depend on the processing

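The number of contacts of the 6 genes was 161, and 89 remained at a score of at least 7 and 34 at 10. It was 137 to 144 with 1 replicate left out, and 144 in the merged calls. The share called in all 3 replicates, 41.6%, became 72.0% when a call within 5 kb counted as a match. With 1 replicate left out, the share called in both others was 54.9 to 56.2%, since fewer replicates had to match. Without contacts between promoter fragments, an alternative chosen after seeing the data, it was 39.0%, against 23.6% for all contacts. The median distance of 306 kb was 283 kb at a score of at least 10, 295 kb in the merged calls and 288 to 308 kb with 1 replicate left out. Of 60 values for single genes 16 moved, among them the 10 contacts of *NPPB*, of which 5 were left without replicate 3, and the merged calls held 4. For *NPPA*, 15 contacts became 7 in the merged calls. Of 24 values for highest-scoring contacts 4 moved. The cause was not tested. No comparison between conditions, paired or not, was possible because the series has 1 group. Other settings for the difference in score between promoters at a shared fragment were not run, as no fragment was called for both genes in all 3 replicates. A score hides its read count, so depth sets no interval for a single contact.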
